A study of Mus musculus with 6 samples.

Results

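Mitochondrial ribosomal proteins were followed here through the 119 array probes whose gene name in the scanner files begins with Mrpl (large subunit) or Mrps (small subunit) followed by a number, out of 56605 non-control probes. They measure 77 genes, 48 of the large subunit (70 probes) and 29 of the small subunit (49 probes), on 17 chromosomes. The samples are total RNA from epithelia of the common bile duct (CBD) of C57BL/6 mice, labelled with Cy3 on Agilent 1-colour arrays of 60-base probes. In the DOX+ group, 3 iFGF10 mice, which carry an inducible FGF10 construct, were given 0.02% doxycycline in their drinking water for 5 days. The DOX- group, also 3 samples, had water without the drug for 5 days; its source names call it untreated iFGF10 mouse, while its descriptions carry names starting with WT, each followed by a pair of numbers, so whether these mice had the construct is not settled by the labels. The series states 3 mice a condition; the labels do not say what the pairs of numbers stand for. The promoter that drives the construct, and the age and sex of the mice, are not given in the sources used here. No doxycycline-treated group without the construct was analysed here, so the drug and the induced gene cannot be told apart as sources of any difference.

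The mitochondrial ribosome makes the membrane subunits of the respiratory chain that mitochondrial DNA encodes. Its RNAs come from mitochondrial DNA, but all its proteins are encoded in the nucleus, made on cytosolic ribosomes and imported. Doxycycline is a tetracycline: in bacteria it blocks entry of aminoacyl-tRNA at the decoding site of the small subunit, and it also inhibits translation inside animal mitochondria, which is why the drug used to switch a transgene on bears on this complex.

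The levels of mitochondrial ribosomal protein mRNAs had lower means in DOX+ than in DOX- duct epithelium for nearly all genes, by small amounts, and no single gene passed the test. Of the 77 genes, 73 (94.8%) had a lower mean in DOX+, against 51.2% of all 20735 genes tested. The median log2 difference was -0.22 (interquartile range -0.32 to -0.10), a fold of 0.861, beside a median of -0.01 over all genes. In limma with Benjamini-Hochberg adjustment over all genes, 0 of the 77 passed at an adjusted p of 0.05, where 8 genes (0.0386%) did overall. At an unadjusted p under 0.05, 6 of the 77 were lower in DOX+ (6.17% of all genes were) and 0 were higher (7.16% of all genes). The 3 DOX+ values lay wholly below the 3 DOX- values for 16 of the 77, where 10.6% of all genes did so, and wholly above for 0, where 10.4% did.

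The arrays limit how firmly this can be stated. The excess of lower means was carried mainly by the array of DOX- replicate 3, which held the highest level of 70 of the 77 genes (90.9%; 32.6% of all genes were highest there). Without that array, 52 of the 77 (67.5%) had a lower mean in DOX+, against 47.4% of all genes, and the median log2 difference was -0.07. In that fit 3 were lower at an unadjusted p under 0.05 (5.94% of all genes) and 16 lay wholly below (15.5% of all genes). On the slide, row 1 held all DOX+ arrays and DOX- replicate 1, and row 2 held the other DOX- arrays. A fit with slide row as a block rests on DOX- replicate 1 as its control: in it 35 of the 77 were lower in DOX+ and 42 higher, the median was 0.02 (45.6% of all genes were lower), and 1 gene was lower at an unadjusted p under 0.05, where 3.09% of all genes were. Where quantile normalisation replaced the scaling to the 75th percentile, 64 of the 77 (83.1%; 49.7% of all genes) were lower and the median was -0.12. Without DOX- replicate 1, by contrast, 76 of the 77 were lower (53.5% of all genes), 15 at an unadjusted p under 0.05 (7.35% of all genes), 37 lay wholly below (19.9% of all genes), and the median was -0.32. With any other single array left out, the members lower at an unadjusted p under 0.05 were few: 2 without DOX+ replicate 1 (5.54% of all genes), 3 without DOX+ replicate 2 (3.71%), 4 without DOX+ replicate 3 (5.40%) and 3 without DOX- replicate 2 (3.03%). Members wholly below DOX- then numbered 23 without DOX+ replicate 1 (16.5% of all genes), 17 without DOX+ replicate 2 (14.5%), 33 without DOX+ replicate 3 (16.3%) and 16 without DOX- replicate 2 (12.4%).

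**Figure D1:**
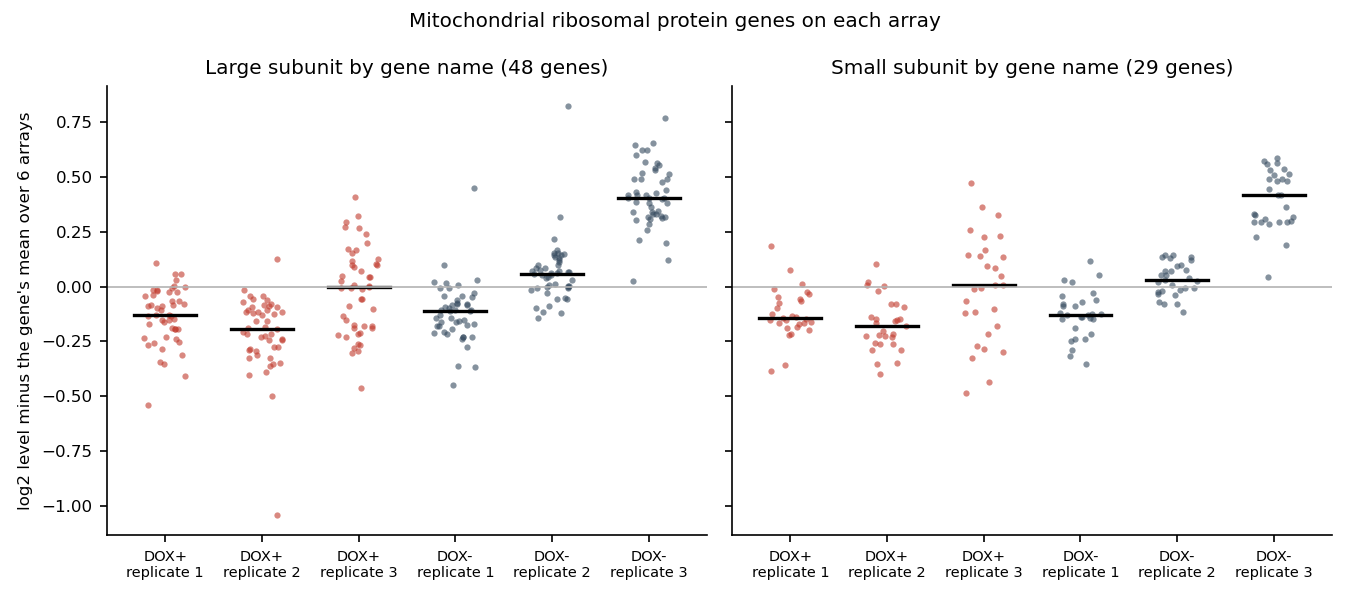
Each point is 1 gene on 1 array, as its log2 level minus its own mean over the 6 arrays (vertical axis); the horizontal axis lists the 3 DOX+ and the 3 DOX- arrays, the left panel holds the 48 large-subunit genes, the right panel the 29 small-subunit genes, and black bars are medians. In both panels DOX- replicate 3 stands highest, at medians of 0.40 (large) and 0.42 (small), and DOX- replicate 1 lies among the DOX+ arrays, at -0.11 and -0.13.

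Between 55.93% and 61.9% of the 59305 non-control spots of an array were well above background, 0 spots were saturated, and 3 arrays a group limited the precision. Levels are log2 processed intensity relative to each array's own 75th percentile. DOX- replicate 3, on which most members were highest, had the lowest share of spots well above background (55.93%). It also had the lowest 75th percentile, 663 against 709 to 903 on the other arrays. Whether this bears on the members' levels there was not tested. Fgf10 itself had 3 probes, none of which was called above background in either group, so the induced gene could not be checked here. All 8 cholangiocyte markers were well above background on every array, with a summed linear level of 185 to 242 in DOX+ and 192 to 325 in DOX-. All 5 smooth muscle markers and all 5 fibroblast markers were detected on every array as well, so RNA of such cells was present in both groups. In bulk RNA, fewer cells of a type and less RNA per cell cannot be told apart. No label ties a sample to a particular mouse, so the p-values describe differences relative to the scatter of these samples, part of which may be technical.

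The probes covered the complex well. Of the 119 probes, 110 were well above background on all 6 arrays, 6 on none and 3 on some, and 0 of their spots carried an outlier flag. The filter, which asked for detection throughout 1 group or both, kept 111 probes, and every one of the 77 genes had at least 1 of them, so no gene is missing from the counts. Each gene is represented by its brightest tested probe; 47 genes had 1 probe and 30 had several.

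Most of the promoters hold the motif of a factor known from nuclear genes of mitochondria, and 4 promoters are printed because they belong to genes described next. NRF1 and GABPA are transcription factors known to drive nuclear genes of mitochondria, and YY1 binds many promoters of ribosomal and mitochondrial genes. Windows of 300 bases (250 before to 50 after the RefSeq start site, GRCm38.p6) were found for 68 of the 77 genes by symbol, and motifs were searched on both strands. The GABPA core CCGGAAG stood in 25 of 68 windows (36.8%, against 9.93% of 27025 promoters), the NRF1 core (GCGCA, any base, GCGC) in 13 (19.1% against 5.19%) and the YY1 core AAGATGGC in 12 (17.6% against 3.19%). At least 1 of these 3 stood in 42 (61.8% against 16.4%), whereas the TATA box TATAAA stood in 5 (7.35% against 15.7%) and the E-box CACGTG in 5 (7.35% against 8.09%). Matches of 2 different motifs overlapped in 0 of the 68 windows. A match is a description of letters, not a bound site. Below, capitals mark the YY1 core in Mrpl35 (chr6:71823735-71824034, minus strand), the GABPA core in Mrpl33 (chr5:31613701-31614000, plus strand), the GABPA core, read on the opposite strand, in Mrps23 (chr11:88204138-88204437, plus strand) and the NRF1 core, read on the opposite strand, in Mrpl12 (chr11:120484387-120484686, plus strand).
Mrpl35: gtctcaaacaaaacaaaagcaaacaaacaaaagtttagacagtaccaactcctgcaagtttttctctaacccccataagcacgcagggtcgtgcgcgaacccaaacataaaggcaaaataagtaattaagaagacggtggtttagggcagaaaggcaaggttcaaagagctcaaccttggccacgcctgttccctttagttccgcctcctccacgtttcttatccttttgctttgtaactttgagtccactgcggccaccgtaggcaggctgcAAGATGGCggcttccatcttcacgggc
Mrpl33: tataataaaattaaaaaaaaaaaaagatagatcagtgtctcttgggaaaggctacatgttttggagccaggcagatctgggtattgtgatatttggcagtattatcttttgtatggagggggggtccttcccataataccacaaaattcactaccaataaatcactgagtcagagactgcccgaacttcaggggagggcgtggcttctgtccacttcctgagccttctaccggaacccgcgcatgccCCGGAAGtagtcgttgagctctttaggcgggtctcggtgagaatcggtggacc
Mrps23: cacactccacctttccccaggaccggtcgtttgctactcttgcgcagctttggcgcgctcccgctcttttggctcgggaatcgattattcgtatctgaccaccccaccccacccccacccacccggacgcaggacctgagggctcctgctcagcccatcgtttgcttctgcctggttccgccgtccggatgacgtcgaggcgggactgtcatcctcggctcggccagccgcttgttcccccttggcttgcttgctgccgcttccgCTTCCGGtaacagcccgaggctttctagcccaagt
Mrpl12: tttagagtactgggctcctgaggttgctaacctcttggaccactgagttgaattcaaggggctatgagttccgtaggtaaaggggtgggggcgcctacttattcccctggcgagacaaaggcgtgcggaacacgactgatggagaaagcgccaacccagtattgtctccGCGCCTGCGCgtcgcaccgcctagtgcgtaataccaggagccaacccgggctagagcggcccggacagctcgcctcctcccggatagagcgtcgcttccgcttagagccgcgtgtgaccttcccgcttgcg

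Genes with the GABPA core had a median log2 difference of -0.30, and those without it -0.17. For the NRF1 core the medians were -0.15 with and -0.23 without, and for the YY1 core -0.20 with and -0.22 without, so the motifs did not order the genes in a single direction. These medians were not tested.

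Of the 48 large-subunit genes, 47 had a lower mean in DOX+ and the median difference was -0.22; 4 (8.33%) were lower at an unadjusted p under 0.05, near the 6.17% of all genes, and in 12 of the 48 DOX+ lay wholly below DOX-, against 10.6% of all genes. Those 4 were Mrpl35, Mrpl33, Mrpl22 and Mrpl45.

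Mrpl35, the counterpart of bacterial L35, stood apart from the rest. Its log2 level was -4.63, -5.13 and -4.55 in DOX+ samples and -3.64, -3.27 and -3.32 in DOX- samples. All 3 DOX+ arrays lay below all 3 DOX- arrays, and the difference did not rest on DOX- replicate 3, which was not the highest. The log2 difference was -1.36 (SE 0.20, 95% interval -1.85 to -0.87), with an adjusted p of 0.137 in limma. Against DOX- replicate 1 alone it was -1.13, and without DOX- replicate 3 it was -1.31. Its single probe (mm9 chr6:71763258-71763317, minus strand) was dim: the processed intensity was 28.7, 23.6 and 38.6 in DOX+ and 65.5, 91.8 and 66.5 in DOX-, and the dimmest spots called well above background on these arrays had log2 levels between -5.22 and -4.70. With normexp background correction the difference was -0.69.

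Mrpl33, the counterpart of bacterial L33, had log2 levels of 4.64, 4.58 and 4.67 in DOX+ and 5.00, 5.21 and 5.28 in DOX-. The 3 DOX+ values lay close together, below every DOX- value. The difference was -0.53 (SE 0.13, limma adjusted p 0.223), and -0.37 against DOX- replicate 1 alone. Its probe lies at mm9 chr5:31924925-31924984, plus strand.

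Mrpl22, whose bacterial counterpart lines the tunnel through which the new peptide leaves the ribosome, had log2 levels of 2.97, 2.94 and 2.87 in DOX+ and 3.16, 3.32 and 3.74 in DOX-. The groups did not overlap, but DOX- replicate 3 was well above the other DOX- arrays. The difference was -0.48 (SE 0.18, limma adjusted p 0.340) and -0.23 against DOX- replicate 1; a second probe of the gene, which spans 849 bases of mm9, gave -0.33. Mrpl45, a mitochondria-specific protein that holds the ribosome to the inner membrane, had levels of 1.92, 1.86 and 1.94 in DOX+ and 2.09, 2.21 and 2.42 in DOX-. Again no DOX+ value reached a DOX- value. The difference was -0.33 (SE 0.13, limma adjusted p 0.367).

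Mrpl28 was the single large-subunit gene with a higher mean in DOX+. Its log2 level was 1.63, 1.53 and 1.74 in DOX+ and 1.13, 1.46 and 1.95 in DOX-. The DOX- arrays spanned the whole DOX+ range, and the difference was 0.12 (SE 0.23, limma adjusted p 0.848). Mrpl12, which forms the flexible stalk that recruits translation factors and also binds the mitochondrial RNA polymerase, had levels of 4.19, 3.95 and 4.54 in DOX+ and 4.06, 4.13 and 4.76 in DOX-, which overlapped (difference -0.09, SE 0.25). Mrpl3, near the peptidyl transferase centre in bacteria, differed by -0.25 and Mrpl36 by -0.29, both with overlapping groups.

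**Figure D2:**
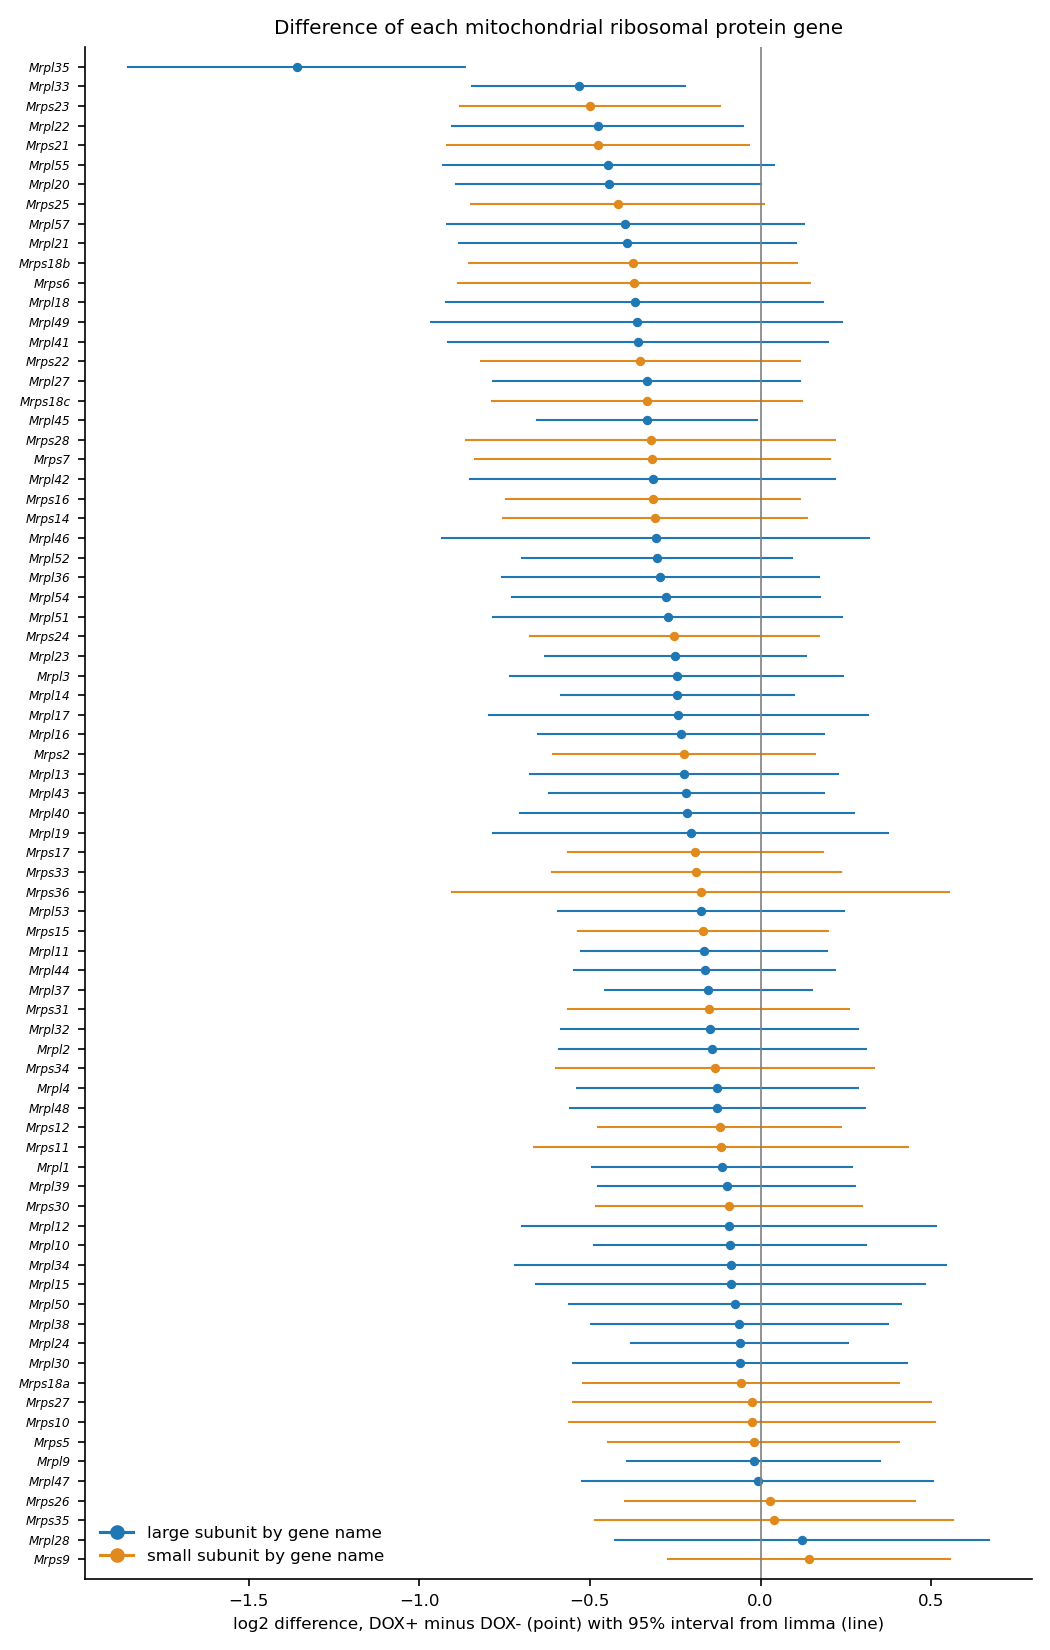
Each row is 1 of the 77 genes, ranked by its log2 difference (horizontal axis, DOX+ minus DOX-), with the point at the limma estimate and the line its 95% interval; blue is the large and orange the small subunit by gene name. Of the intervals, 71 include 0; Mrpl35 lies apart at -1.36, and 73 points lie left of 0.

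Small-subunit genes also mostly had lower means in DOX+. Of the 29, 26 had a lower mean in DOX+, with a median of -0.19; 2 (6.90%) were lower at an unadjusted p under 0.05 and in 4 (13.8%) DOX+ lay wholly below DOX-, both near the shares of all genes (6.17% and 10.6%). Mrps23, a mitochondria-specific protein, had log2 levels of 2.80, 2.97 and 2.94 in DOX+ and 3.27, 3.27 and 3.67 in DOX-. The groups were separate, and DOX- replicates 1 and 2 were level with each other. The difference was -0.50 (SE 0.16, limma adjusted p 0.294), and -0.37 against DOX- replicate 1. A second probe of Mrps23 (mm9 chr11:88023381-88023613) did not show it: its difference was -0.02, against -0.50 at mm9 chr11:88024940-88024999.

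Mrps21, the counterpart of bacterial S21, had log2 levels of 4.02, 3.83 and 4.13 in DOX+ and 4.26, 4.37 and 4.79 in DOX-. Every DOX- array was above every DOX+ array, and the difference was -0.48 (SE 0.18, limma adjusted p 0.356). Its 3 probes gave -0.58, -0.48 and -0.38, so all of its probes had lower means in DOX+. Mrps25, a mitochondria-specific protein, had levels of 2.40, 2.22 and 2.46 in DOX+ and 2.60, 2.64 and 3.10 in DOX-, again separate (difference -0.42, SE 0.18, limma adjusted p 0.381). The 3 small-subunit genes with a higher mean in DOX+ were Mrps9 (0.14, SE 0.17), Mrps35 (0.04) and Mrps26 (0.03), all with overlapping groups.

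Several small-subunit proteins sit in the head or at the decoding centre, the part of the bacterial ribosome where tetracyclines act. Mrps12, whose bacterial counterpart forms part of the decoding centre, had log2 levels of 3.53, 3.41 and 3.55 in DOX+ and 3.48, 3.52 and 3.85 in DOX-. The groups overlapped and the difference was -0.12 (SE 0.15, limma adjusted p 0.754). Proteins of the head differed by -0.32 (Mrps7), -0.02 (Mrps10), -0.31 (Mrps14) and -0.25 (Mrps24, counterpart of bacterial S3). In each of these 4 the DOX+ and DOX- arrays overlapped, and none reached an unadjusted p of 0.05. Mrps18a, Mrps18b and Mrps18c are 3 paralogues of bacterial S18 that take separate places in the ribosome, Mrps18a in the large subunit; they differed by -0.06, -0.37 and -0.33.

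**Figure D3:**
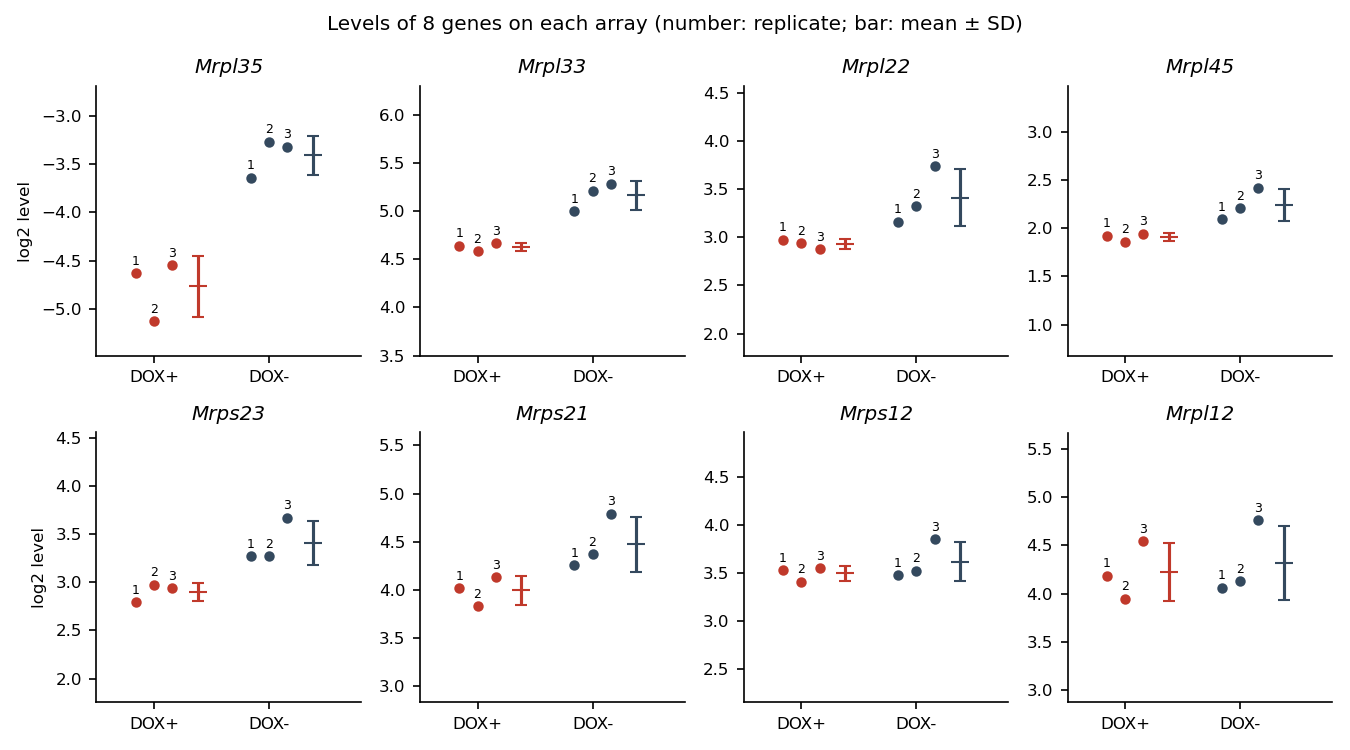
Points are the log2 levels (vertical axis, 1 panel per gene, all axes of the same length) on the 3 DOX+ arrays (left) and the 3 DOX- arrays (right), numbered by replicate, with the mean ± SD beside them. Mrpl35, Mrpl33, Mrpl22, Mrpl45, Mrps23 and Mrps21 show no overlap between the groups, while Mrps12 and Mrpl12 do.

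The difference between the subunits was not tested. Lower means in DOX+ were found for 97.9% of large-subunit and 89.7% of small-subunit genes, at median differences of -0.22 and -0.19. With the mean of a gene's probes the medians were -0.22 and -0.16. The median of gene-centred levels of the large subunit minus that of the small subunit was 0.01, -0.01 and -0.01 in DOX+ samples and 0.02, 0.03 and -0.02 in DOX- samples. These values overlapped, and the difference of the medians of the log2 differences, large minus small, was -0.03. Gene names do not match the structure throughout: Mrps18a and Mrps30 belong to the large subunit, and Mrps36 is now known as part of the 2-oxoglutarate dehydrogenase complex. By structure, the median was -0.22 for 50 large-subunit genes and -0.21 for 26 small-subunit genes. The 46 genes with a bacterial counterpart had a median of -0.22 and the 30 mitochondria-specific genes -0.20. In this grouping Mrps18c was counted as having a bacterial counterpart. Its paralogues Mrps18a and Mrps18b, also related to bacterial S18, were counted as mitochondria-specific. The 6 mitochondrial ribosomal proteins that go under other names had a median of -0.17, and none had a higher mean in DOX+. Chchd1 (-0.36) and Gadd45gip1 (-0.34) were furthest below 0, whereas the means of Ptcd3 were practically equal (-3.1e-05).

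The spread within groups was unequal. The median standard deviation of a member was 0.148 over the DOX+ arrays and 0.278 over the DOX- arrays. The 95% intervals of 71 of the 77 genes included 0, and across all 77 genes the bounds ran from -1.85 to 0.67. A 2-fold higher level (a log2 difference of 1) thus lay outside every interval, and a 2-fold lower level (-1) lay inside the interval of 1 gene. These intervals cover only the brightest tested probe of each gene. Another probe of Mrpl48, described below, had a log2 difference of 1.29. DOX+ replicate 2 held the lowest level of 35 genes, DOX+ replicate 3 of 15, DOX+ replicate 1 of 14, and DOX- replicate 1 of 12. For the 15 genes other than Mrpl35 whose groups did not overlap, the DOX+ mean lay between 0.02 and 0.37 below DOX- replicate 1 on the log2 scale. That direction was fixed by how these genes were chosen. Over all 77 members, the DOX+ mean lay above DOX- replicate 1 in 42 and below it in 35.

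A further 9 members, named after their values were seen, had groups that did not overlap: Mrpl55, Mrpl20, Mrpl57, Mrpl27, Mrps16, Mrpl52, Mrpl23, Mrpl14 and Mrpl37. Their log2 differences ran from -0.45 to -0.15, with limma adjusted p between 0.375 and 0.624, and 8 of the 9 belong to the large subunit, which holds 48 of the 77 genes. Mrpl57, a mitochondria-specific protein, had log2 levels of 3.96, 3.97 and 3.93 in DOX+ and 3.98, 4.30 and 4.78 in DOX-, with DOX- replicate 1 only just above the DOX+ arrays. Mrpl55, at 3.42, 3.58 and 3.43 in DOX+ and 3.66, 3.78 and 4.33 in DOX-, had a similar order, with DOX- replicate 3 highest. The 7 members that were not highest on DOX- replicate 3 were Mrpl35 and, highest on DOX+ replicate 3, Mrpl9, Mrpl34, Mrpl38, Mrps9, Mrps26 and Mrps35. Mrpl34 is an example, at 2.41, 2.17 and 2.97 in DOX+ and 2.29, 2.63 and 2.90 in DOX-, where the array highest in each group was its replicate 3.

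Probes of the same gene mostly had the same sign. Of 28 genes with several tested probes, 20 had all probes on the same side of 0 and 8 did not; the median gap between a gene's probes was 0.18. Mrpl48, named after its values were seen, had the widest gap. Both probes annotated to its RefSeq transcript gave -0.13, while a probe annotated to another transcript model (mm9 chr7:107694484-107694543, minus strand) had processed intensities of 156, 115 and 278 in DOX+ and 86.4, 75.8 and 47.3 in DOX-. All 3 DOX+ values of that probe exceeded all 3 DOX- values, opposite in sign to the gene's other detected probes. Its log2 difference was 1.29 (SE 0.31, limma adjusted p 0.221 over all probes).

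Other genes of mitochondrial translation did not share the lower means to the same extent. Of 30 genes for assembly of the ribosome, 15 had lower and 15 higher means in DOX+ (median 0.01); the smallest p belonged to Rbfa, which helps the small subunit mature (-0.41), and Fastkd5, which processes mitochondrial RNA (-0.33). Of 17 translation factors and mRNA-binding proteins, 10 were lower (median -0.10), among them Slirp (-0.32) and Lrpprc (-0.28), partners that stabilise mitochondrial mRNA. Of 20 mitochondrial aminoacyl-tRNA synthetases, 14 were lower (median -0.04), with Vars2 at -0.42 and Yars2 at -0.34. None of these genes passed the test over all genes, and these list medians were not tested against each other.

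The RNAs that the mitochondrial ribosome translates had small differences in both directions. Of 10 mitochondrially encoded mRNAs tested, 7 had higher and 3 lower means in DOX+ samples (median log2 difference 0.03). The exception in size was mt-Nd6, a complex I subunit encoded on the light strand, at -0.92, -1.02 and -1.58 in DOX+ and -0.23, -0.86 and -0.31 in DOX-. Those groups did not overlap, though DOX+ replicate 1 and DOX- replicate 2 lay close to each other, and the difference was -0.70 (SE 0.25, limma adjusted p 0.333). Of 15 genes for transcription and copying of mitochondrial DNA, 7 were lower (median 0.04); Ppargc1a, a coactivator of mitochondrial biogenesis, had the higher mean (0.59, SE 0.19, limma adjusted p 0.296) and the related Pprc1 the lower (-0.36).

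Stress responses linked to blocked mitochondrial translation gave no call either. Of 11 genes of mitochondrial protein stress, 4 were lower and 7 higher (median 0.00057). The chaperonin cofactor Hspe1 had log2 levels of 3.87, 3.75 and 4.05 in DOX+ and 4.30, 4.65 and 5.02 in DOX-. Its groups were separate, at -0.77 (SE 0.21, limma adjusted p 0.251), and its partner Hspd1 differed by -0.43. Of 14 genes of the integrated stress response, 8 were higher and 6 lower in DOX+ (median 0.04); Trib3 was at 0.77 and Shmt2 at 0.54, both with separate groups and limma adjusted p of 0.373 and 0.428.

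**Figure D4:**
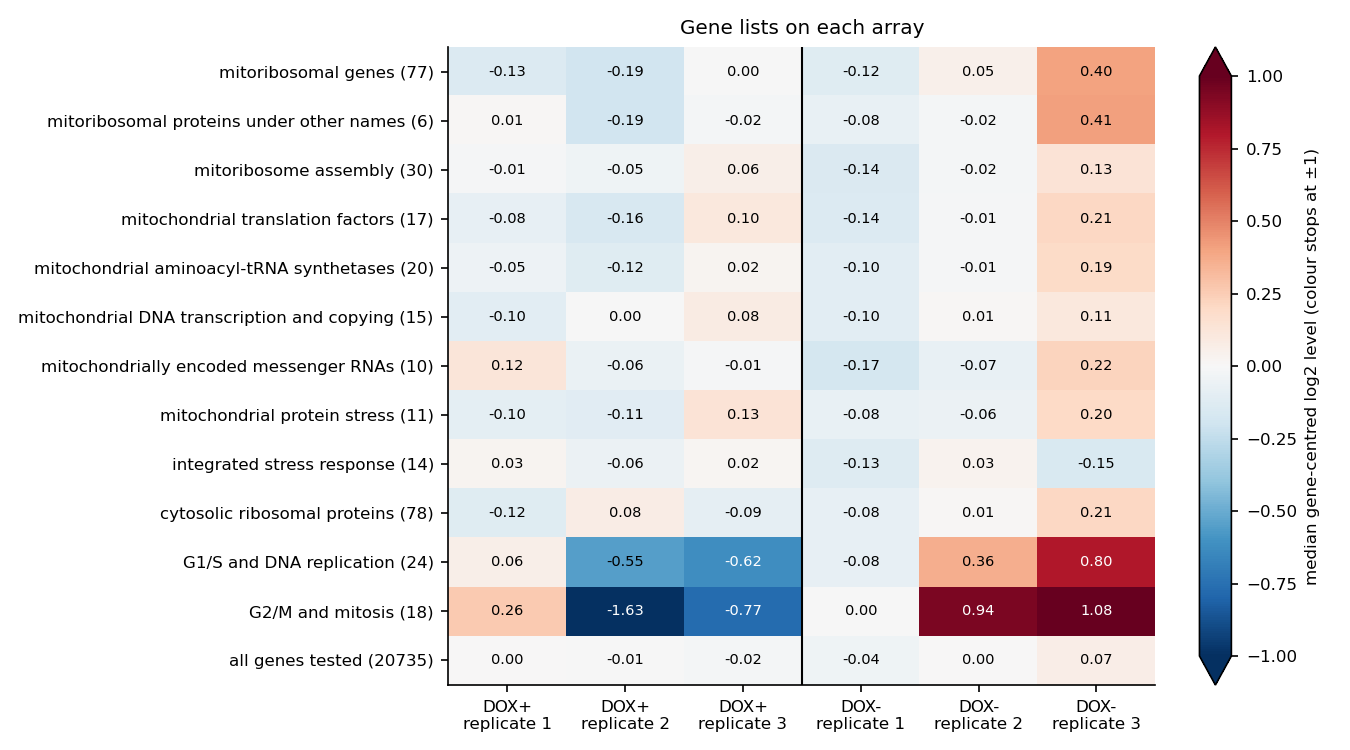
Each cell gives the median gene-centred log2 level of a gene list (rows, with the number of genes tested) on 1 array (columns, DOX+ left of DOX-); red is above and blue below the gene means. The mitochondrial ribosomal genes are highest on DOX- replicate 3 (0.40), where the cytosolic ribosomal proteins (0.21) and the G2/M genes (1.08) are also highest.

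Other lists were high on the same array. The 78 cytosolic ribosomal proteins had lower means in DOX+ in 68 cases, with a median of -0.09, and 67 of them (85.9%) were highest on DOX- replicate 3; with quantile normalisation 39 were lower and 39 higher. Their medians by array were -0.12, 0.08 and -0.09 in DOX+ and -0.08, 0.01 and 0.21 in DOX-. Genes of G2/M and mitosis had medians of 0.26, -1.63 and -0.77 in DOX+ samples and -5.8e-05, 0.94 and 1.08 in DOX- samples, and genes of G1/S 0.06, -0.55 and -0.62 in DOX+ and -0.08, 0.36 and 0.80 in DOX-. All 18 G2/M and all 24 G1/S genes tested had lower means in DOX+, 10 and 12 of them at an unadjusted p under 0.05 (6.17% of all genes) and 0 past the adjusted threshold in limma. Without DOX- replicate 3 these counts at an unadjusted p under 0.05 were 1 and 4 (5.94% of all genes), and with the replicate block 4 and 3 (4.59%). Over all single arrays left out they ran from 1 to 17 for G2/M and from 3 to 18 for G1/S, where 3.03% to 7.35% of all genes were lower. With slide row as a block the median log2 differences were -0.72 for G2/M and -0.34 for G1/S, against -1.39 and -0.81 without a block.

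Cell type markers also differed between the arrays. The summed cholangiocyte level was 242, 214 and 185 in DOX+ and 192, 239 and 325 in DOX-, highest on DOX- replicate 3. The smooth muscle sum was 167, 115 and 71.6 in DOX+ and 288, 54.2 and 59.5 in DOX-, highest on DOX- replicate 1, the array on which the mitochondrial ribosomal genes lay with the DOX+ arrays. The pancreatic acinar sum was 44.8, 41.7 and 32.4 in DOX+ and 24.0, 27.4 and 64.0 in DOX-. Of the 4 acinar markers 2 were well above background on every array, and Cela1 made up most of the sum. The others varied far more. Log2 levels of Cpa1, Prss2 and Pnlip were -4.495, -6.63 and -7.19 on DOX- replicate 1. On DOX- replicate 3 they were 2.95, 0.95 and 1.79, with the other arrays in between. The macrophage sum was 28.3 to 37.2 in DOX+ and 17.3 to 54.1 in DOX-. The mast cell sum was 2.40, 5.25 and 48.6 in DOX+ and 0.427 to 1.29 in DOX-. Mcpt1, at a log2 level of 5.43, made up most of that sum on DOX+ replicate 3. Of the 4 mast cell markers 3 were well above background on every array. The fibroblast sum was 77.7 to 127 in DOX+ and at most 144 in DOX-, the endothelial sum 8.50 to 10.5 in DOX+ and 5.08 to 7.04 in DOX-, and the hepatocyte sum 67.1 to 124 in DOX+ and 58.0 to 139 in DOX-. The T cell sum was 0.926 to 1.18 in DOX+ and 0.816 to 1.07 in DOX-, and the plasma cell sum 15.8 to 20.1 in DOX+ and 10.3 to 11.2 in DOX-. Of the 3 plasma cell markers only Sdc1 was well above background on every array. Log2 levels of Jchain were 2.61, 3.29 and 3.69 in DOX+ and 2.21, 1.45 and -4.97 in DOX-. Mzb1 was also lowest on DOX- replicate 3, at -6.74, where Sdc1 (3.48) made up nearly all of the sum. The part of cell makeup and of proliferation in the differences of the mitochondrial ribosomal genes was not tested.

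Many of these genes lie head to head with a neighbour. Of the 68 genes with a RefSeq promoter, 23 (33.8%, against 10.9% of 27025 genes) had a start site on the opposite strand within 500 bases of their own. In the 19 pairs with a tested partner outside the family, the members' median log2 difference was -0.22 and the partners' -0.07, with 13 partners lower and 6 higher in DOX+. Mrps12 shares its promoter with Sars2, the mitochondrial seryl-tRNA synthetase, at -0.12 and 0.08, and Mrpl43 with Twnk, the mitochondrial DNA helicase, at -0.22 and 0.28. Mrpl46 and Mrps11, both members, form such a pair, at -0.31 and -0.12.

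**Figure D5:**
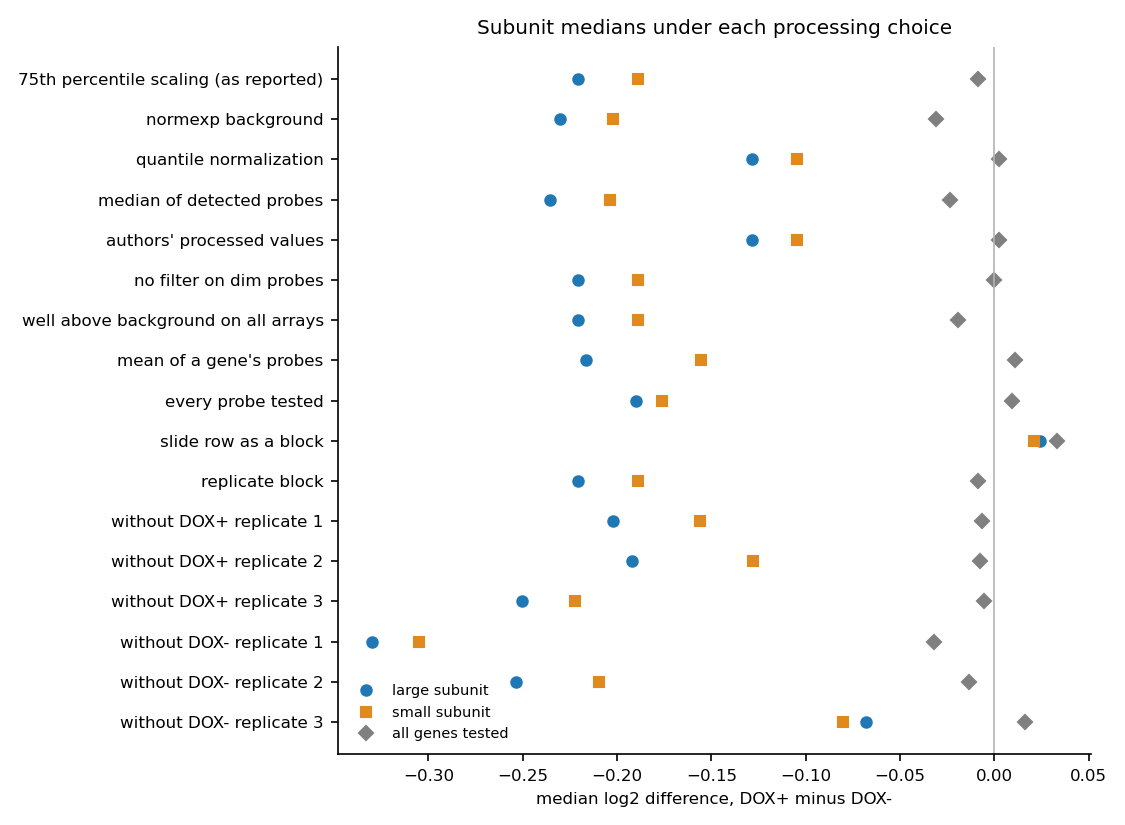
Each row is a processing choice, and the points are the median log2 differences (horizontal axis, DOX+ minus DOX-) of large-subunit genes (blue circles), small-subunit genes (orange squares) and all genes tested (grey diamonds). Both subunits lie left of all genes in every row, closest with slide row as a block (0.02 for each, beside 0.03) and without DOX- replicate 3 (-0.07 and -0.08).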

How the data were processed

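The authors deposited scanner files with spot intensity, written by Agilent Feature Extraction. Its version is 10.7.1.1 per the file headers and 9.5.1.1 in the submitters' processing notes. Background subtraction and spatial detrending were done array by array, per the file headers. A second deposited table holds the authors' processed intensity of the same 56605 probes on a linear scale; sorted, its columns were equal to within 0.000342 of their mean, each column's median was 57.79, and each column correlated with its own array's log2 intensity at 0.9983 or more. The software behind it was not stated. The deposited files also carry other values, namely 0 or 1 flags for detection, saturation and outlying spots.

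From these, log2 processed intensity minus each array's 75th percentile was computed, without control and outlier spots, and spots of a probe were averaged. A probe was kept if it was flagged as well above background throughout DOX+, throughout DOX-, or both, and the probe with the highest mean stood for a gene (20735 genes, 1 of them with a value missing on 1 array). Probes were named through the RefSeq table of GRCm38.p6 (32895 by accession, 10194 by symbol, 520 by synonym, 10 as mitochondrial genes), 119 kept their member name and 12867 the name in the file. Probe positions follow the array annotation (mm9). DOX+ was tested against DOX- by two-sided limma (version 3.58.1, R 4.3.3; lmFit, then eBayes, no covariate), with Benjamini-Hochberg adjustment over all genes and a threshold of 0.05. A label-permutation test of 3 against 3 samples cannot go below p = 0.10. On simulated data for this comparison with 20735 genes, the test recovered 36.7% of genes changed 2-fold, 75.8% changed 4-fold and 88% changed 8-fold, and 4.5% of its calls were false. The simulation drew each gene independently, with the same SD in both groups and no shift shared by the genes of an array or slide row. Its shares may therefore not hold for these arrays.

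The members, gene lists and tests were chosen with earlier results of these data known. Named genes are members past the test; per subunit and direction those with the smallest p (up to 6 at an unadjusted p under 0.05, or 3 where fewer reached it); a set of 13 members by role; and 2 genes of each other list with the smallest p. Alternatives changed the background correction, the scaling, the probe filter, the probe rule, slide row or replicate number as a block, and left out each array. Same-numbered DOX+ and DOX- samples did not deviate together (r = -0.086, -0.131 and -0.02 across genes). With 3 samples a group, these values cannot settle whether the numbers pair the samples. All 6 arrays lay on 1 slide. No protein sequences were used here.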

Additional observations from a re-analysis of the deposited data

How the results depend on the processing

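None of the 77 genes passed the adjusted test under any of the 16 alternatives run. The median log2 difference of the 77 was between -0.32 and -0.07 when each array was left out in turn, between -0.23 and -0.12 under the other scalings and background correction, and 0.0221 with slide row as a block (large subunit 0.0244, 1 gene lower at an unadjusted p under 0.05, large minus small 0.0035). Large minus small was -0.0611 with the mean of a gene's probes and -0.0646 to 0.0124 with each array left out. Counts of lower members at an unadjusted p under 0.05 ran from 2 to 15 with each array left out (15 without DOX- replicate 1, 2 without DOX+ replicate 1, and 3 without DOX+ replicate 2, DOX- replicate 2 or DOX- replicate 3), where 3.03% to 7.35% of all genes were lower, and those of members wholly below DOX- from 16 to 37 (37 without DOX- replicate 1, 33 without DOX+ replicate 3), where 12.4% to 19.9% of all genes were. Averaging a gene's probes gave higher members (1 at an unadjusted p under 0.05, 1 wholly above; 7.86% and 11.7% of all genes); testing every probe gave 1 and 2 (7.53% and 10.9% of all probes), quantile normalisation and the authors' values 1 wholly above each (10.1% of all genes in both), and leaving out arrays 0 to 1. Among all genes, 8 passed as reported, 2 with quantile normalisation, 2 with the authors' values, 1 without the filter, 5 with probes detected on all arrays, 19 probes when every probe was tested, and 0 to 9 with each array left out. With slide row as a block 0 passed limma (777 genes higher and 640 lower at an unadjusted p under 0.05), and with the replicate block 0 passed (1303 genes higher and 952 lower at an unadjusted p under 0.05; 5 members lower at an unadjusted p under 0.05, against 4.59% of all genes, median -0.22); the replicate block changed no other count of members by over 1.5 times. Of 23 named members, 6 changed sign with slide row as a block, 4 without DOX+ replicate 3, 3 each with quantile normalisation, with the authors' values, without DOX- replicate 1 and without DOX- replicate 3, 1 each with the mean of a gene's probes, without DOX+ replicate 1 and without DOX+ replicate 2, and 0 under the others; 10 moved by over 1 SD with slide row as a block, 1 each with normexp and with the mean of a gene's probes. The cause of these shifts was not tested.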
